A study of Homo sapiens with 4 samples.

Results

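The genes described here encode the translation initiation factors (eIF), the translation elongation factors (eEF) and the proteins named after them. They were taken as every RefSeq NM_ transcript whose gene symbol opens with EIF1 to EIF6 or with EEF1 or EEF2, and EIF2C symbols, which belong to the Argonaute genes, were left out. The rule gave 69 of the 18798 genes with a named NM_ record, with 151 records of 137 accessions. It used names and no measured value.

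The RNA came from DU-145, an established human cell line grown from a metastatic prostate carcinoma. Both arms were transfected with 60 nM of miR-28-5p duplex, irradiated with ultraviolet light 24 hours later and passed over streptavidin beads. The miR-28CT samples received the plain duplex, so their beads held background RNA. The miR-28BIO samples received a mix of biotin-tagged duplexes with a thiouridine, a crosslinking base, at nucleotide 8 or 18. Both arms thus carried added miR-28-5p, and a comparison between them asks which RNA the tagged duplex brought to the beads and not which RNA the cell made. There were 2 libraries per arm, and the study calls them biological replicates. In bulk RNA, fewer cells of a kind and less RNA per cell cannot be told apart.

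In background, eIF2 carries the initiator tRNA to the small ribosomal subunit and is recharged by its exchange factor eIF2B, and a family of kinases blocks that exchange under stress. eIF4E binds the mRNA cap, eIF4G joins it to the helicase eIF4A and to eIF3, the largest initiation factor, and the 4E-BP proteins compete with eIF4G for eIF4E. eEF1A then brings aminoacyl-tRNA to the ribosome and eEF2 moves the ribosome along. Several of these mRNAs open with a C followed by pyrimidines, the 5′ terminal oligopyrimidine (TOP) motif, through which growth signals set their translation.

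Start sites are printed for the genes of a TOP list from textbook knowledge that had a start in the table used. Each line gives the 12 bases before the annotated RefSeq start (GRCh38.p14) and then the 12 bases from it, in lower case except for the run of a C followed only by C or T that opens at the start base, which is in capitals.
EEF1B2, start with a run (chr2:206159883-206159906, plus strand): gtctcttcgggtCCTTTTTCCTCT
EEF1B2, other start (chr2:206159597-206159620, plus strand): ggaagtggccccagcctcgaggcc
EIF3F (chr11:7987325-7987348, plus strand): cgcttccgcctcCTTCTTTCTCga
EEF1A1 (chr6:73521021-73521044, minus strand): gccgtgaacgttCTTTTTCgcaac
EEF2 (chr19:3985452-3985475, minus strand): gacgtcagcgttCTCTTCCgccgt
EIF4B (chr12:53006444-53006467, plus strand): cctcatccgggtCTTTTgcgttct
EEF1G (chr11:62573880-62573903, minus strand): cccgggcggcttactttgcggcag
The run of EEF1B2 goes on past its line and is 16 bases long. Its other start and that of EEF1G, the gene with the lowest fold change, held no such run.

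Levels were given as FPKM, a count of fragments divided by transcript length and by library size, which allows levels of different genes to be set side by side. Each library was divided by a median-of-ratios factor of 0.842 to 1.077, and the result is called scaled FPKM. From the deposited coverage, 13.0 to 17.9 M reads stood behind the FPKM, and the NM_ records of these genes held an estimated 45338 to 72207 of them. Non-coding RNA (NR_ records) made up 50.3% and 86.1% of the summed FPKM of miR-28CT, in the order of the replicate numbers, and 25.2% and 68.7% of that of miR-28BIO. Their part in the results below was not tested. The keratins KRT8, KRT18 and KRT19 stood at 13.3 to 83.7 FPKM and EPCAM at 3.41 to 5.26, whereas PTPRC, CD3E, PECAM1 and HBB, which mark blood and vessel cells, were listed at 0 in all 4 libraries, and the B cell gene CD79A at 0 to 0.433 FPKM. The prostate gene KLK3 was also listed at 0.

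A mean scaled FPKM of at least 0.5 was reached by 62 of the 69 genes and by 87 of the 151 records. The 7 others were EEF1D, EEF1E1, EIF4E1B, EIF4EBP3 and the readthrough gene EEF1AKMT4-ECE2, which were listed at 0 in all libraries, and EIF3C and EIF3CL, which reached at most 0.041 and 0.203 FPKM. EIF3C and EIF3CL are near-identical copies, and EEF1D has 16 records, 8 accessions each placed on a chromosome and on an alternate sequence of it, so a listing at 0 is not read as an absence. Further copies that could share reads include EIF5A and EIF5AL1, and other copies were not sought. Exon bases are also shared with another annotated gene of the same strand, 1439 in EEF1G, 1757 in EIF4A1 and 1561 in EIF3L. The part of such sharing in the levels was not tested.

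EEF2 was the most abundant of the 62 genes by the mean of its 4 libraries. Its scaled FPKM was 161 and 421 in miR-28CT replicates 1 and 2 and 138 and 388 in miR-28BIO replicates 1 and 2. The next were EIF4G2, an eIF4G relative without the eIF4E binding part, with a mean of 101, the helicase EIF4A1 with 67.1 and the eIF3 subunit EIF3E with 66.6. The lowest was EIF5AL1 with 0.588. EEF2 lay above EIF4G2 in every library, but EIF4G2 was not second in each. In miR-28CT, EIF3E (119) exceeded it (92.7) in replicate 1, and EIF3K (140.2) was among those that exceeded it (74.1) in replicate 2. EIF4A1 and EIF3E lay closer to each other than their replicates did.

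**Figure D1:**
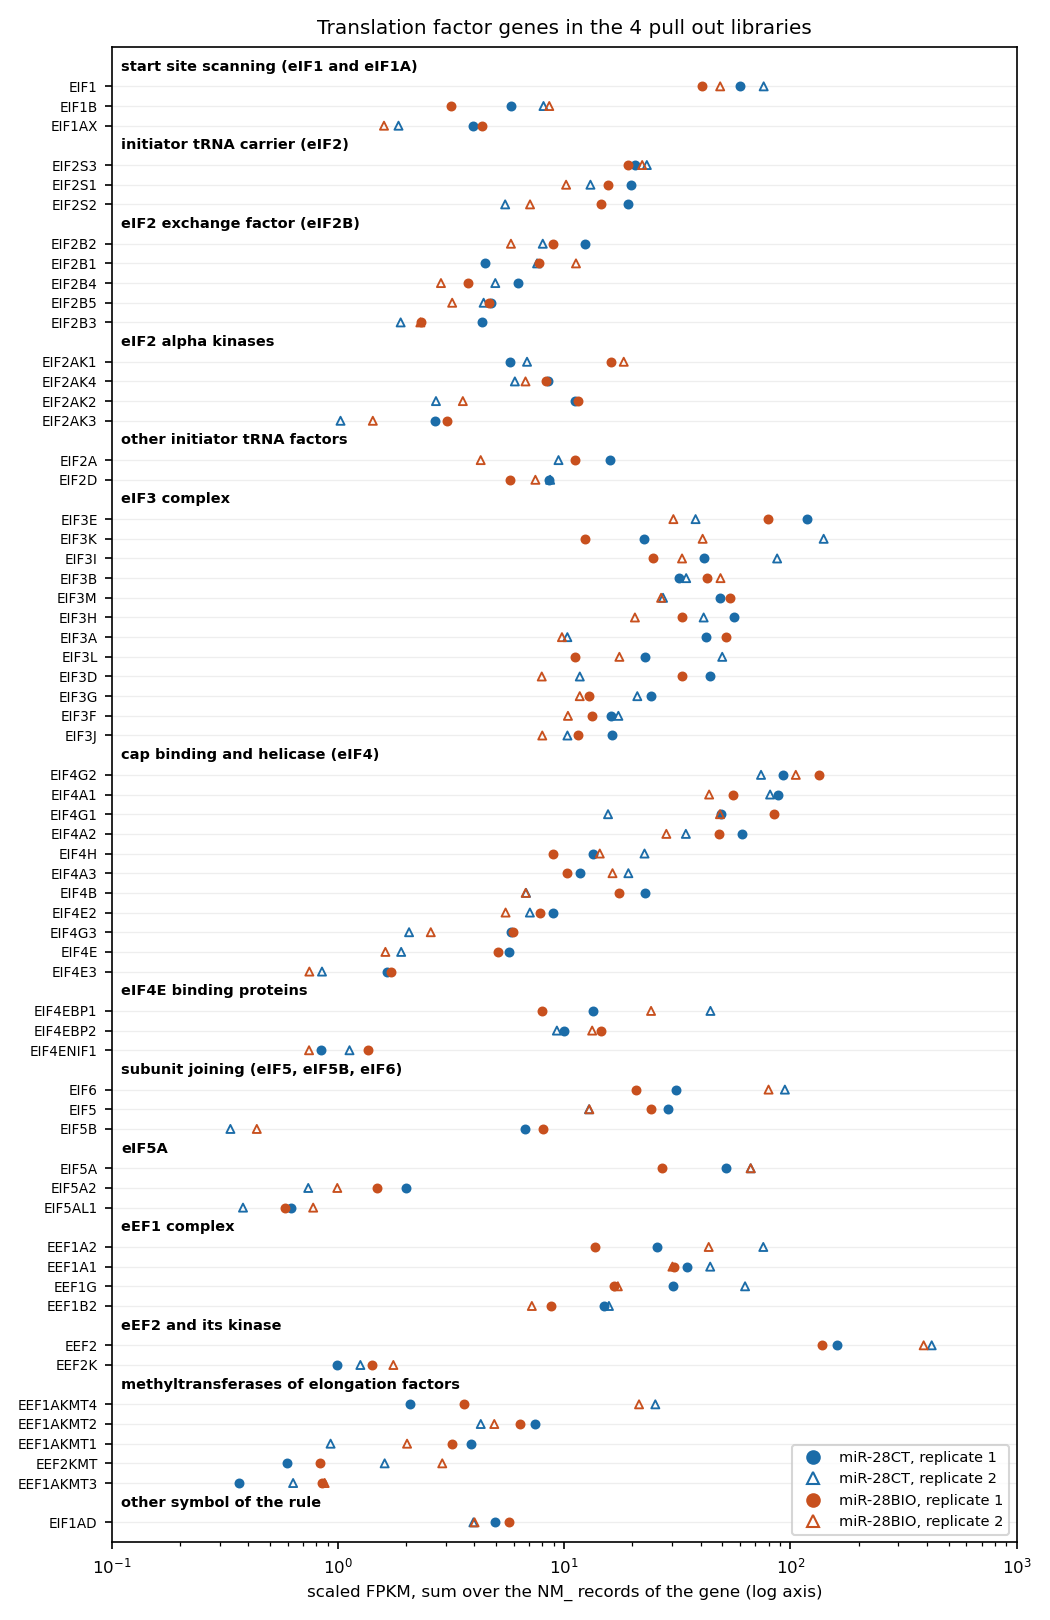
Scaled FPKM (log axis) of 61 translation factor genes in the 4 libraries, grouped by role and ordered by mean within a role, with 1 point per library (blue miR-28CT, orange miR-28BIO, circles replicate 1, triangles replicate 2). Points of the same shape lie close together for most genes, and EIF2AK1 is a gene whose orange points both lie clear of its blue ones.

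The replicate number separated the libraries more than the arm did, and the sources used here do not give what libraries of 1 number share. Over the 62 genes, log2 levels correlated with Pearson's r of 0.957 and 0.954 between same-numbered libraries of the 2 arms, and of 0.830 and 0.826 between the replicates of miR-28CT and of miR-28BIO. These are correlations across genes, which are not independent replicates. Replicate 2 differed from replicate 1 by over 2-fold in 27 of the 62 genes in miR-28CT and in 23 in miR-28BIO. The arm means of log2 levels, each over 2 libraries and thus less spread than single libraries, differed by over 2-fold in 6. Over all genes these shares were 44.6%, 40.6% and 14.6%, so that those of the translation factor genes (43.5%, 37.1% and 9.68%) were no higher.

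The difference between replicates was alike in both arms. EIF5B, the GTPase that joins the ribosomal subunits, had 6.67 and 8.08 scaled FPKM in the replicates 1 of miR-28CT and miR-28BIO and 0.33 and 0.44 in the replicates 2. EEF1AKMT4, a methyltransferase of eEF1A, had 2.08 and 3.60 in the replicates 1 and 25.3 and 21.4 in the replicates 2. EIF3K went the same way, with 22.6 and 12.3 in the replicates 1 against 140.2 and 40.9 in the replicates 2. Across the 62 genes the replicate differences of the arms correlated with r of 0.912, against 0.745 over all 10391 genes. They moved with GC content of the canonical transcript, with Spearman's rho of 0.63 in miR-28CT and 0.64 in miR-28BIO, and over all genes with rho of 0.68 and 0.64. The part of base composition in the difference was not tested.

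**Figure D2:**
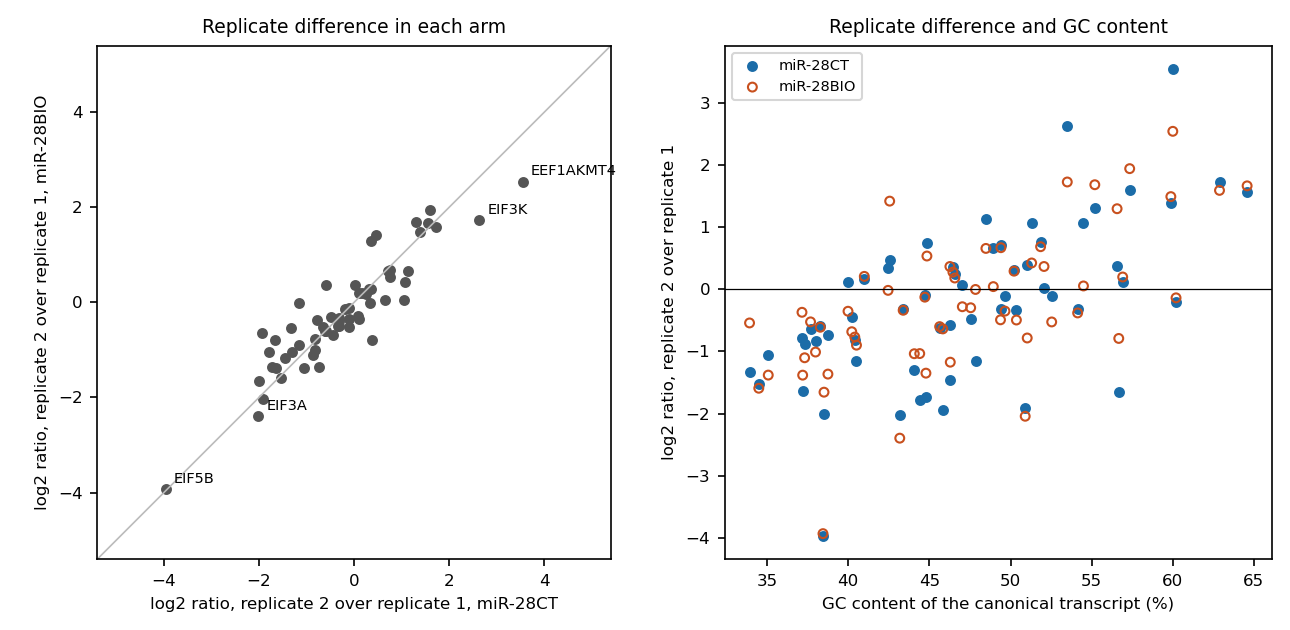
Left, log2 ratio of replicate 2 over replicate 1 in miR-28BIO against that in miR-28CT, with 1 point for each of 61 genes and the line of equality in grey. Right, the same ratios against the GC content of the transcript (%), filled for miR-28CT and open for miR-28BIO. EIF5B lies at -3.97 and -3.93, and points tend to lie higher at higher GC content (Spearman's rho of 0.63 and 0.64).

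No translation factor gene passed the main test between the arms, which did not use the replicate number. A fit that used it is described with the alternatives below. limma with a variance trend on log2(scaled FPKM + 0.1), with Benjamini-Hochberg adjustment, called 0 of 62 genes and 0 of 87 records, as it called 0% of the 10391 genes and 0% of the 15636 records tested in either direction. At an unadjusted p under 0.05, 1 of the 62 genes was higher and 0 lower, against 240 and 77 of all genes. On simulated data with the real spread, the same test called 0 of 200 changed genes. A count of 0 thus does not show that these genes were alike in the arms.

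Both miR-28BIO libraries lay above both miR-28CT libraries in 7 of the 62 genes and below them in 12, and over all genes tested these shares were 12.4% and 12.9%. The FPKM as deposited gave 8 and 11, with 15.6% and 8.57% of all genes. The median log2 fold change, miR-28BIO over miR-28CT, was -0.20 for the 62 genes and -0.09 for all genes. It was 0.034 without miR-28CT replicate 1 and 0.0011 without miR-28BIO replicate 2, and lay at -0.43 without either of the others. In all, 41 of the 62 (66.1%) lay below 0, against 56.2% of all genes. In the replicates 1 alone 42 lay below 0 and in the replicates 2 alone 39, and 33 did so in both pairs (53.2%, all genes 40.3%). Other scalings shifted the median of all genes by 0.16 (as deposited) or 0.10 (upper quartile), and then 33 and 35 of the 62 (53.2% and 56.5%) lay below 0, against 44.2% and 48.9% of all genes.

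**Figure D3:**
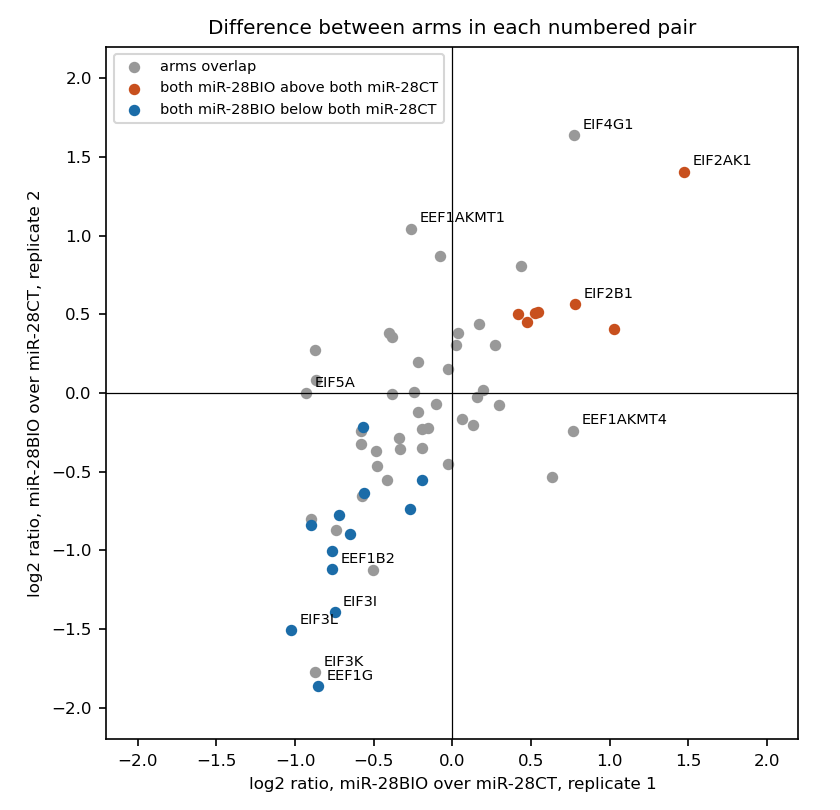
Log2 ratio of miR-28BIO over miR-28CT in the replicates 2 against that in the replicates 1, 1 point for each of 61 genes, orange where both miR-28BIO libraries lay above both miR-28CT libraries, blue where both lay below and grey otherwise. EIF2AK1 stands at 1.47 and 1.41, and EEF1G, EIF3L, EIF3K and EIF3I lie farthest to the lower left.

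EIF2AK1 encodes the heme-regulated kinase of eIF2 (chromosome 7, 6022247 to 6059175, GRCh38). Its scaled FPKM was 5.76 and 6.84 in miR-28CT replicates 1 and 2 and 16.2 and 18.3 in miR-28BIO replicates 1 and 2. The arms did not overlap, and the replicates of each arm were close. It was 2.71-fold higher in miR-28BIO, a log2 fold change of 1.44 ± 0.42 (SE, n = 2 per arm), with a limma adjusted p of 1.00 (0.927 to 1.00 over the alternatives that used no block). The estimated reads behind it were 485, 334, 1306 and 1292 in the same order of libraries.

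The exons of EIF2AK1 share 532 bases with AIMP2 on the opposite strand, and the sources used here do not give whether the counting used strand. AIMP2 had 14.9 and 25.0 scaled FPKM in miR-28CT and 19.4 and 56.2 in miR-28BIO. The other kinases of eIF2 overlapped between the arms. EIF2AK2, the kinase that responds to double-stranded RNA, had a log2 fold change of 0.21 ± 0.97, EIF2AK3 of the endoplasmic reticulum had 0.30 ± 0.72, and EIF2AK4, which senses amino acid shortage, had 0.06 ± 0.44 (SE, n = 2 per arm). All 4 kinases thus had values above 0, but those of EIF2AK2, EIF2AK3 and EIF2AK4 turned below 0 when a library was left out.

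Of eIF2 itself, all 3 subunit genes tested lay between -0.34 and -0.01, and 2 of them turned above 0 under the other scalings. EIF2S3, the most abundant, had 20.6 and 23.2 scaled FPKM in miR-28CT and 19.2 and 22.1 in miR-28BIO, close to even in all libraries. In eIF2B, the subunit genes did not go one way. EIF2B1, the regulatory alpha subunit, had 4.47 and 7.58 in miR-28CT and 7.75 and 11.3 in miR-28BIO, a log2 fold change of 0.67 ± 0.51 with arms that did not overlap. EIF2B4 had 6.23 and 4.95 in miR-28CT and 3.74 and 2.85 in miR-28BIO, a log2 fold change of -0.75 ± 0.43, also without overlap. EIF2B2, the most abundant, lay at -0.47 ± 0.50 with overlap. EIF2B1 shares 538 exon bases with DDX55 on the other strand.

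The factors EIF2A and EIF2D, which can also deliver initiator tRNA, had log2 fold changes of -0.81 ± 0.67 (-1.50 to -0.13 when a library was left out) and -0.39 ± 0.42. EIF2A overlapped between the arms, and EIF2D had 8.59 and 8.65 scaled FPKM in miR-28CT and 5.76 and 7.45 in miR-28BIO, a separation that was lost in the FPKM as deposited (9.06 and 7.29 against 6.03 and 8.02). Of the scanning factors, EIF1, which guards start codon choice, had 59.8 and 76.1 in miR-28CT and 40.4 and 48.9 in miR-28BIO, a log2 fold change of -0.60 ± 0.50 without overlap. Its paralog EIF1B, with 5.83 and 8.09 against 3.15 and 8.58, overlapped.

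Of the 12 genes of the eIF3 complex tested, 9 (75%) had log2 fold changes below 0 under each of the scalings (7 to 11 when a library was left out), against 56.2% of all genes (44.2% as deposited and 48.9% with upper quartile scaling). In 5 (41.7%, all genes 12.9%) both miR-28BIO libraries lay below both miR-28CT libraries, and in 1 (8.33%, all genes 12.4%) both lay above. EIF3L had 22.7 and 49.9 scaled FPKM in miR-28CT and 11.1 and 17.5 in miR-28BIO. The arms did not overlap, and the log2 fold change was -1.27 ± 0.62 (-1.83 to -0.70 when a library was left out). EIF3I, a WD40 repeat subunit, had 41.6 and 87.3 in miR-28CT and 24.7 and 33.1 in miR-28BIO, a log2 fold change of -1.07 ± 0.60 (-1.60 to -0.54 when a library was left out). EIF3K lay lowest of the complex at -1.32 ± 1.16, but its miR-28BIO replicate 2 (40.9) exceeded its miR-28CT replicate 1 (22.6). Its value rested on single libraries, with -0.0099 without miR-28CT replicate 2, -0.46 without miR-28BIO replicate 1, -2.18 without miR-28BIO replicate 2 and -2.64 without miR-28CT replicate 1.

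EIF3H had 56.2 and 41.3 scaled FPKM in miR-28CT and 33.0 and 20.5 in miR-28BIO, and EIF3G had 24.2 and 21.0 against 12.9 and 11.7. EIF3F had 16.0 and 17.3 against 13.3 and 10.4. All of these had miR-28BIO values below the miR-28CT values. EIF3B, a scaffold subunit, was the exception with 32.0 and 34.6 in miR-28CT and 42.8 and 49.0 in miR-28BIO (log2 fold change 0.46 ± 0.46). EIF3A, the other scaffold, and EIF3M lay at 0.11 ± 1.15 and 0.06 ± 0.64. EIF3E had 119 and 38.0 in miR-28CT and 79.3 and 30.3 in miR-28BIO, a spread between replicates that exceeded the difference between arms.

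In the eIF4 group, the eIF4G genes had values above 0 and the helicase genes EIF4A1 and EIF4A2 below 0 under each of the scalings, although EIF4G3 and EIF4A2 turned when a library was left out. EIF4G1, the main scaffold (chromosome 3, 184314606 to 184335358), had 49.5 and 15.6 scaled FPKM in miR-28CT and 84.6 and 48.8 in miR-28BIO. Each pair was higher in miR-28BIO (log2 0.77 and 1.64), but miR-28BIO replicate 2 lay just below miR-28CT replicate 1. In the FPKM as deposited it lay just above (52.5 against 52.2). The log2 fold change was 1.21 ± 0.78. It was 0.38 without miR-28CT replicate 2, 0.81 without miR-28BIO replicate 1, 1.60 without miR-28BIO replicate 2 and 2.03 without miR-28CT replicate 1. EIF4G2 had 92.7 and 74.1 in miR-28CT and 133.6 and 105.5 in miR-28BIO, without overlap, with pairs at 0.53 and 0.51. The third relative, EIF4G3, lay at 0.16 ± 0.75. EIF4A1 had 87.7 and 81.3 in miR-28CT and 55.8 and 43.7 in miR-28BIO, a log2 fold change of -0.77 ± 0.50 without overlap. Its paralog EIF4A2 overlapped at -0.31 ± 0.60. The sum of EIF4A1 rests on 1 record, because the other had a status of too little data in all 4 libraries and was listed at 0.

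Of the eIF4E binding proteins, EIF4EBP1 and EIF4EBP2 had opposite signs, except that EIF4EBP1 turned to 0.055 without miR-28CT replicate 2. EIF4EBP1 had 13.4 and 44.3 scaled FPKM in miR-28CT and 7.98 and 24.2 in miR-28BIO, with overlap and a log2 fold change of -0.80 ± 0.90. EIF4EBP2 had 9.93 and 9.27 in miR-28CT and 14.5 and 13.3 in miR-28BIO, without overlap and with a log2 fold change of 0.53 ± 0.41. The difference between the 2 genes was not tested.

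Among the factors of subunit joining and of eIF5A, which helps the ribosome over hard peptide bonds, all 6 genes tested overlapped between the arms. EIF6, which keeps the large subunit apart, had 31.1 and 94.4 scaled FPKM in miR-28CT and 20.8 and 80.0 in miR-28BIO. EIF5A had 51.8 and 66.7 in miR-28CT and 27.2 and 66.7 in miR-28BIO, so that its replicates 2 were even and its replicates 1 were not. EIF5A2 lay at -0.01 ± 0.69.

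Of the eEF1 complex, all 4 genes tested had log2 fold changes below 0 under each of the scalings and without any 1 library, and in 3 (75%, all genes 12.9%) both miR-28BIO libraries lay below both miR-28CT libraries. EEF1G, the gamma subunit (chromosome 11, 62559596 to 62573891), had 30.2 and 63.0 scaled FPKM in miR-28CT and 16.6 and 17.2 in miR-28BIO. It was 2.57-fold lower in miR-28BIO, the largest negative log2 fold change of the 62 genes at -1.36 ± 0.57 (limma adjusted p of 1.00), and at -0.83 without miR-28CT replicate 2 and -1.89 without miR-28CT replicate 1. EEF1B2, the exchange factor subunit, had 15.0 and 15.7 in miR-28CT and 8.76 and 7.18 in miR-28BIO, a log2 fold change of -0.94 ± 0.42. EEF1A1 had 34.9 and 44.1 in miR-28CT and 30.5 and 30.1 in miR-28BIO, and EEF1A2, the form of muscle and nerve, had 25.6 and 75.8 against 13.7 and 43.5, with overlap.

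EEF2 lay at -0.17 ± 0.91, and 0.00 with the FPKM as deposited. Its kinase EEF2K, which halts elongation, had 0.99 and 1.25 scaled FPKM in miR-28CT and 1.42 and 1.75 in miR-28BIO. Of the methyltransferases of elongation factors, 4 of 5 lay above 0 (5 of 5 under the other scalings, and 3 or 4 when a library was left out), and EEF1AKMT3 had both miR-28BIO libraries above (0.36 and 0.63 against 0.84 and 0.87, at 18 to 41 estimated reads). EEF2K shares 669 exon bases with a non-coding RNA of the opposite strand.

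The TOP factor genes were a list of 11 taken from textbook knowledge, of which 10 were tested and EEF1D was not. All 10 had log2 fold changes below 0, where 56.2% of all genes did, except EEF2 with the FPKM as deposited and 1 or 2 genes when a library was left out. In 6 of them (60%, all genes 12.9%) both miR-28BIO libraries lay below both miR-28CT libraries. Their median was -0.68 (-0.67 in the replicates 1 and -0.77 in the replicates 2), against -0.09 for all genes. None was called by limma, and 0 had an unadjusted p under 0.05. The list overlaps the eIF3 and eEF1 genes described above and is no separate evidence.

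A start site was known for 50 of the 62 genes. Of these, 12 (24.0%) opened with a C followed only by C or T for at least 5 bases, against 7.53% of the 8675 genes tested with a start site and 4.07% of all 35116 starts in the table. The median log2 fold change was -0.38 for the 12 and -0.09 for the other 38, and 11 of the 12 lay below 0, of which EIF2S3 and EEF2 turned under other scalings. EIF2S3, EEF2 and EIF4A2 were among those that turned when a library was left out. Of the other 38, 60.5% lay below 0, and so did 60.6% of all genes tested with such a run. Over all genes tested the medians were -0.16 with and -0.08 without such a run. This was the second definition tried, after promoters of some of these genes had been seen. The first took the longest such run of at least 7 bases within 20 bases on either side of the start. It held for 22 of the 50 genes (44%), 25.3% of all genes tested and 20.2% of all starts, with medians of -0.42 with and -0.01 without it for the translation factor genes and -0.07 and -0.09 over all genes.

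Fold change moved with transcript length. Over the 62 genes, Spearman's rho between the log2 fold change and the length of the canonical transcript was 0.52, with 0.58 in the replicates 1 and 0.43 in the replicates 2, and over all genes it was 0.43. The median length was 2678 bases for the 62 genes and 3382 for all genes tested. The 5 genes with the lowest fold changes, EEF1G, EIF3K, EIF3L, EIF3I and EEF1B2, are 1446, 772, 2669, 1421 and 808 bases long. EIF2AK1 and EIF4G1 are 4411 and 5405 bases long. The canonical transcript can differ from the record measured. For EIF3H, EIF3F and EIF3M it is 3961, 6920 and 5047 bases long, and their most abundant deposited records are 1275, 1256 and 1338 bases long. With the length of that record, a choice made after the data had been seen, rho was 0.58 over the 62 genes and 0.44 over all genes. The part of length in the fold changes of the eIF3, eEF1 and TOP genes was not tested. GC content had a rho of -0.15 with the fold change.

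**Figure D4:**
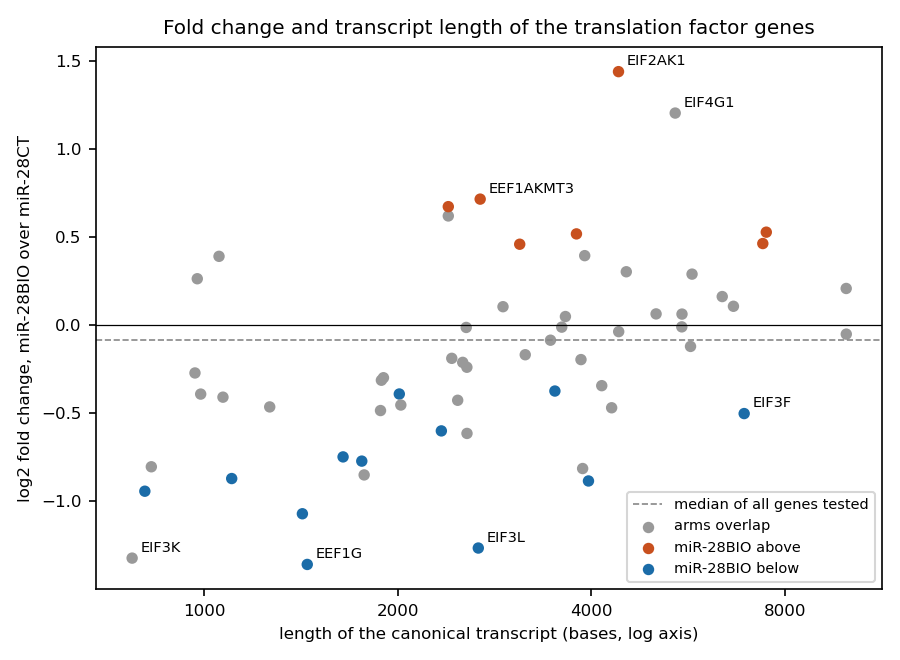
Log2 fold change of miR-28BIO over miR-28CT against the length of the canonical transcript (bases, log axis), 1 point for each of 61 genes, coloured by whether the arms overlapped, with the median of all genes tested (-0.09) as a dashed line. Short transcripts lie mostly below the line, and EIF2AK1 and EIF4G1 lie highest among the longer ones.

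Single records could differ from their sums. EIF2AK1 had 2 records. NM_001134335 had 6.07 and 0.958 FPKM in miR-28CT and 16.9 and 0 in miR-28BIO, whereas NM_014413 had 0 and 4.80 in miR-28CT and 0 and 19.7 in miR-28BIO. The record that carried the gene thus changed with the replicate number, and the log2 fold change of NM_001134335 was -1.08 where the sum had 1.44. Of the 8 records of EIF4G1, 5 were tested, and where the sum had 1.21, NM_004953 had -2.01 and NM_182917 had -2.10 while NM_198244 had 3.77, NM_198241 had 0.96 and NM_198242 had 0.78. NM_004953 was listed at 0 in miR-28BIO replicate 2, NM_182917 in miR-28BIO replicate 1 and NM_198244 in miR-28CT replicate 2. NM_198241 and NM_198242 were listed at 0 in the replicates 1 of both arms. These values thus rest on the 0.1 added before the logarithm, with SEs of 2.36 to 3.73. In EIF3L, NM_001242923 was listed at 0 in both miR-28CT libraries and had 4.92 and 8.00 FPKM in miR-28BIO, while NM_016091 had 23.9 and 42.0 against 6.67 and 10.9 (limma adjusted p of 0.836 for the first and 1.00 for the second).

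Other genes of translation were taken as a list of 42 outside the symbols above, such as poly(A)-binding proteins, kinases of eIF4E, release factors and mitochondrial factors. All 42 were tested and limma called 0, with 1 at an unadjusted p under 0.05. In 2 (4.76%, all genes 12.4%) both miR-28BIO libraries lay above both miR-28CT libraries, and in 5 (11.9%, all genes 12.9%) both lay below. Their median log2 fold change of -0.10 turned to 0.064 as deposited and 0.0021 with upper quartile scaling. It was 0.25 without miR-28CT replicate 1 and 0.22 without miR-28BIO replicate 2, and -0.51 and -0.50 without miR-28CT replicate 2 and miR-28BIO replicate 1. Of the genes with higher values, GCN1, the partner of EIF2AK4, had 12.5 and 24.8 scaled FPKM in miR-28CT and 30.4 and 52.2 in miR-28BIO, a log2 fold change of 1.17 ± 0.61. TUFM, the mitochondrial relative of eEF1A, had 23.0 and 29.6 in miR-28CT and 45.7 and 54.3 in miR-28BIO (log2 fold change 0.93 ± 0.48). Those with lower values were MKNK1, MCTS1, DHPS, DPH3 and PELO. MKNK1, a kinase of eIF4E and the gene with the unadjusted p under 0.05, had 2.36 and 0.50 scaled FPKM in miR-28CT and was listed at 0 in both miR-28BIO libraries. PELO, which rescues stalled ribosomes, had 9.68 and 9.91 in miR-28CT and 4.98 and 6.20 in miR-28BIO.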

How the data were processed

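The 4 libraries were made from total RNA (TruSeq Stranded, single reads of 50 bases), and the authors aligned them to hg38 with TopHat2 2.0.9 and measured them with Cufflinks 2.1.1, per the submitters' processing notes. The authors deposited, per library, FPKM and coverage of 53209 RefSeq records, and use of strand is not given in the sources used here. The deposited coverage, a mean read signal, served only to estimate reads. The paper's Cuffdiff test needs reads and was not repeated.

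Files were joined on record, locus and length. The 52530 records whose status was OK throughout were scaled, those above 0 in every library setting the factors, and summed per symbol (GRCh38.p14 names, 97.9% of NM_ records) and tested with limma 3.58.1 in R 4.3.3, with 13 fits of records and 24 of gene sums. Members, lists and named genes were chosen with earlier results of these data known, and genes named for arms that did not overlap were picked after their values were seen. The 5 genes of highest and of lowest fold change, called genes, the most abundant of each role, paralogs and records against their sums were named by rule. On simulated data of 10391 genes with 200 changed and the real spread, limma without a block called 0, and with 0.05 of that spread all 200 and 7 unchanged genes. The simulated libraries of 1 number shared no deviation, so the fit with the block was not tested for these data. Lengths and GC are of canonical GENCODE 44 transcripts. Matches to the miR-28-5p seed were not examined here. One gene on the Y chromosome is counted but not described. Tables and figures were made in Python 3.11.15 with pandas 2.3.3, numpy 2.4.6, matplotlib 3.10.9 and scipy 1.17.1.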

Additional observations from a re-analysis of the deposited data

How the results depend on the processing

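No alternative without the block called any of the translation factor genes or records. The labels number the libraries, but the sources used here do not say that libraries of 1 number share a batch. Over all genes, deviations of same-numbered libraries from their arm's mean correlated with r of 0.745. A fit with the replicate number as a block (1 residual degree of freedom) called EIF2AK1 alone of these genes (limma adjusted p of 0.0421), where 2.64% of all genes were called higher and 2.29% lower, and no record. With the block, 9 choices added after the data had been seen gave 11 genes when every record of the symbol was summed (2 higher and 9 lower, all genes 5.31% and 7.09%), 15 with a mean of at least 5 FPKM (3 and 12 of 45, all genes 10.3% and 19.1%), 5 with the FPKM as deposited (2 and 3, all genes 4.91% and 3.28%), 2 with upper quartile scaling (1 and 1, all genes 3.77% and 2.62%), 1 each with NM_ records of any status, with no filter and with pseudocounts of 1 and 0.01, and 0 without a trend. EIF2AK1 was called in 8 of them (limma adjusted p of 0.0060 to 0.048) and not without a trend (0.131). EIF3L was called in 4, EEF1G, EIF3K and EIF4G1 in 3, EEF1A2, EEF1B2, EIF3G, EIF3H, EIF3I and EIF4EBP1 in 2, and EIF2A, EIF2B1, EIF4A1 and EIF4H in 1. Of the 42 other genes of translation the block called GCN1 (limma adjusted p of 0.047). The median log2 fold change of -0.20 moved to -0.39 with a mean of at least 5 FPKM, -0.034 as deposited and -0.10 with upper quartile scaling. It ran from -0.43 (without miR-28CT replicate 2 or miR-28BIO replicate 1) to 0.034 (without miR-28CT replicate 1). The cause of these changes was not tested.

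As deposited, EEF2 lay at 0.0036, EIF2S3 at 0.085 and EIF5A2 at 0.14, with upper quartile scaling EIF2S3 lay at 0.021 and EIF5A2 at 0.087, and with a pseudocount of 0.01 EIF5A2 lay at 9.5e-05. Leaving out each library turned the sign of EEF1AKMT4 (-1.51 to 2.03), EEF2 (-0.91 to 0.58), EIF1B (-1.10 to 0.32), EIF2AK2 (-0.79 to 1.21), EIF2AK3 (-0.35 to 0.96), EIF2AK4 (-0.18 to 0.30), EIF2S3 (-0.19 to 0.017), EIF3E (-1.27 to 0.37), EIF4A2 (-0.72 to 0.10), EIF4EBP1 (-1.66 to 0.055), EIF4G3 (-0.57 to 0.89), EIF5A (-1.11 to 0.18), EIF5A2 (-0.67 to 0.65) and EIF6 (-1.38 to 0.56). EIF2AK1 ran from 1.32 to 1.56, EEF1A2 from -1.68 to -0.02, EIF2B1 from 0.30 to 1.05 and EIF2B2 from -0.78 to -0.16. With 2 libraries per arm, 2 residual degrees of freedom were left, and FPKM gives no counting interval.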
